A study of Mus musculus with 94 samples.

Results

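The genotype difference in the MAM response at 48 hr was examined in adult mouse brain, that is, the change after MAM in Mgmt-/- brain minus the change after MAM in wt brain. For each probe set, the log2 difference between MAM and vehicle in wt mice was subtracted from that in Mgmt-/- mice, and this value is called the interaction below. A negative interaction means that MAM moved a transcript lower in Mgmt-/- than in wt brain. The comparison used the 23 arrays of the 48 hr time point out of 94 in the series, and it was read over 45101 probe sets, of which 34958 name 1 gene (18194 genes). Calls needed a false discovery rate of 0.05 (limma, Benjamini-Hochberg) and a fold change above 1.3 either way in at least 1 probe set of a gene, and 271 of 16333 genes tested were called. All 4 groups were 11-week-old male mice of strain C57BL6. The wt vehicle group held 5 animals, and the wt MAM, Mgmt-/- vehicle and Mgmt-/- MAM groups held 6 each, with 1 array per animal and brain tissue rather than sorted cells. Mgmt-/- mice carry the deletion in every cell and at every age, so the 2 genotypes also differ before treatment. In brain tissue, fewer cells of a type and less RNA per cell cannot be told apart.

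Methylazoxymethanol (MAM) is the active product of cycasin, a toxin of cycad seeds, and it alkylates DNA. One of its lesions is a methyl group on the O6 position of guanine, which the enzyme Mgmt removes by transferring it to itself. Without Mgmt the lesion persists, and it can mispair at replication or be acted on by mismatch repair. The interaction asks whether this repair capacity changes what MAM does to brain transcripts.

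By their numbers the animals of either genotype form 2 sets, with 2 or 3 animals of each group in a set. The sets were treated as the 2 laboratories, which the labels do not state directly. Arrays are named here by their labels, which give genotype, treatment, hours and animal number. Number set entered the fit as a block, and 35550 probe sets (78.8%) with a p above 0.15 in a joint F test of differing effects between the sets were tested. Arrays WT.VEH.48.113, MGMT.VEH.48.317 and MGMT.MAM.48.337 correlated least with the other arrays of their groups (r of 0.991, 0.993 and 0.990, against 0.994 to 0.998 for the rest). The probe set of Mgmt itself read 5.66 to 6.05 in wt vehicle, 5.57 to 5.78 in wt MAM, 5.34 to 6.25 in Mgmt-/- vehicle and 5.47 to 5.81 in Mgmt-/- MAM brains, and its interaction was 0.10 ± 0.17 (SE, limma adjusted p = 0.79). Its place relative to the deleted part of the gene is not known here, so it does not check the labels.

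Of the 271 called genes, 38 had a higher and 233 a lower interaction, which is 1.66% of the genes tested in either direction, 0.233% higher and 1.43% lower. At an unadjusted p under 0.05, 16.6% of the tested probe sets differed. The lower genes had a median interaction of -0.85 and reached -2.50 log2 units, and the higher genes had a median of 0.53 and reached 0.86. The 38 higher genes were dim, with a median level of 4.71 log2 units and 36 of them below 6, whereas the 233 lower genes had a median level of 6.90 with 75 below 6. The count depended on single animals. As percent of all 18194 named genes it was 1.49, against 2.71 without WT.VEH.48.115 and 3.97 without MGMT.VEH.48.317, and 0.912, 0.791 and 0.775 without WT.MAM.48.137, WT.MAM.48.739 and WT.VEH.48.717. Without WT.VEH.48.113, MGMT.VEH.48.317 and MGMT.MAM.48.337 together it was 512 genes, 122 higher and 391 lower. These included 221 of the 271 genes, and all 233 lower genes stayed below 0 (median -0.82). The 20 arrays left were among those on which the genes were called, which favors the same sign. The share of called genes that were lower also varied. Leaving out 1 animal gave 68% (MGMT.VEH.48.317) to 91.4% (MGMT.VEH.48.313), and array weights gave 67.1%. Just inside the threshold lay Yes1 and Cab39 (interaction -0.54 and -0.65, each with adjusted p = 0.0496, limma), and just outside it Mst1 and 4933424G06Rik (0.52 and 0.63, adjusted p = 0.0501 and 0.0504).

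To see which genotype carried the interaction, MAM minus vehicle was read in each genotype. In Mgmt-/- brain 0.802% of the genes tested were called, 0.0551% (9 genes) higher and 0.753% lower, and 8.72% of the probe sets had an unadjusted p under 0.05. In wt brain 0 genes were called with limma and 0 with an ordinary linear model, although 5330 of the tested probe sets (15%) had an unadjusted p under 0.05. With array weights 144 genes were called in wt brain, and without WT.VEH.48.115 there were 206. The difference between the genotypes was 855 genes in vehicle brains (5.23%; 1.93% higher and 3.35% lower in Mgmt-/-) and 2412 after MAM (14.8%; 4.03% higher and 11% lower). These are counts from contrasts that share arrays, so they are given side by side only.

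Among the 233 lower genes, every gene was lower after MAM in Mgmt-/- and higher after MAM in wt brain, with a median of -0.49 and 0.35 log2 units. The Mgmt-/- change was the larger in 170 of them and made up a median of 60.1% of the interaction. At an unadjusted p under 0.05 the Mgmt-/- change passed in 225 and the wt change in 169, both in 161, and 102 were called in Mgmt-/- brain by the full rule. The 38 higher genes were the mirror image, with a median of 0.19 in Mgmt-/- and -0.32 in wt brain. There the wt change was the larger in 29 and Mgmt-/- made up a median of 37.8% of the interaction. In vehicle brains, Mgmt-/- minus wt had a median of 0.195 log2 units in the lower genes and -0.193 in the higher genes. That vehicle difference was called in 63 of the 233 and 0 of the 38, against 1061 of the 35550 tested probe sets. All these values come from the arrays on which the genes were called. Among all 35550 tested probe sets 21456 also had opposite signs, the wt change was the larger in 20912 and the Mgmt-/- change in 14636, and the median share of Mgmt-/- was 39.3%.

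**Figure D1:**
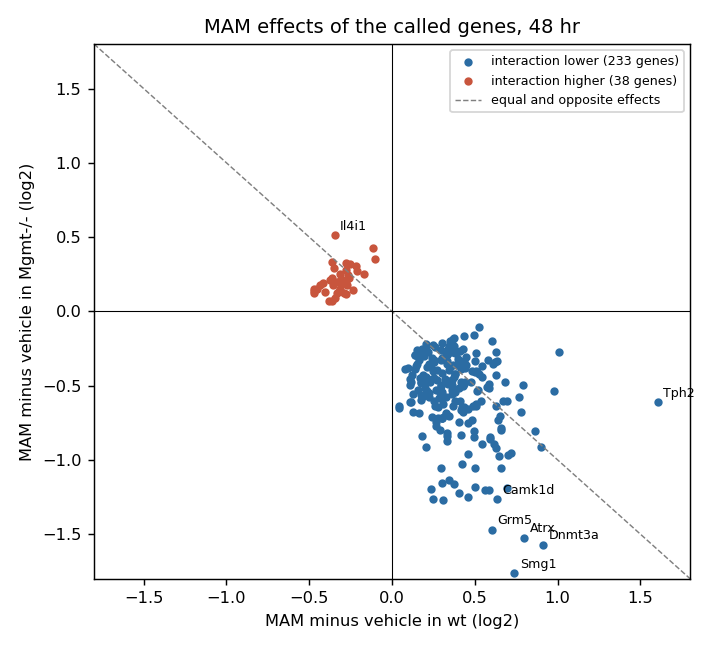
MAM minus vehicle (log2) in wt (x axis) and Mgmt-/- brain (y axis) at 48 hr for the called genes, 1 probe set each; the dashed line marks equal and opposite changes. All 233 genes of lower interaction (blue) lie at the lower right, mostly under the line, and all 38 of higher interaction (red) in the upper left, with Tph2 far to the right.

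The lowest interaction was found for Smg1. This kinase, which starts the decay of RNAs with premature stop codons, read 5.62, 6.13, 6.36, 6.62 and 6.94 in the 5 wt vehicle brains and 6.10, 7.46 and 7.68 (lowest, median and highest) in the 6 wt MAM brains. In Mgmt-/- brain it read 6.92, 7.32 and 7.58 in vehicle and 5.18, 5.53 and 5.94 after MAM. The Mgmt-/- MAM brains lay below every Mgmt-/- vehicle and wt MAM brain, and the wt groups overlapped, with WT.MAM.48.141 and WT.MAM.48.741 at 6.10 and 6.14 and the other wt MAM brains at 7.41 or above. The interaction was -2.50 ± 0.35 (SE, limma adjusted p = 5.74e-04), of which -1.76 came from Mgmt-/- and 0.74 from wt brain.

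Dnmt3a, which adds methyl groups to DNA at new sites, had the same pattern. It read 5.55, 6.30, 6.30, 6.93 and 6.998 in wt vehicle and 6.40, 7.67 and 7.90 in wt MAM brains, and 6.84, 7.25 and 7.52 in Mgmt-/- vehicle and 5.41, 5.66 and 5.76 in Mgmt-/- MAM brains. The 6 Mgmt-/- MAM values had an SD of 0.13 log2 units and lay below all other Mgmt-/- and wt MAM values, and again WT.MAM.48.141 and WT.MAM.48.741 read lowest among the wt MAM brains. The interaction was -2.48 ± 0.35 (SE, limma adjusted p = 5.74e-04).

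Atrx, a chromatin remodeler, read 5.68, 6.67, 7.18, 7.40 and 7.43 in wt vehicle and 6.96, 7.65 and 8.23 in wt MAM brains, and 6.70, 7.52 and 7.74 against 5.30, 5.86 and 6.43 in Mgmt-/- vehicle and MAM brains. The Mgmt-/- MAM group lay below the Mgmt-/- vehicle and the wt MAM groups without overlap. Its interaction was -2.32 ± 0.36 (SE, limma adjusted p = 0.00169).

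Grm5, a metabotropic glutamate receptor, read 8.17, 8.98 and 9.58 in Mgmt-/- vehicle and 7.13, 7.41 and 8.15 in Mgmt-/- MAM brains, with no overlap, and 7.24, 7.76, 7.99, 8.62 and 8.76 in wt vehicle and 8.11, 8.65 and 9.14 in wt MAM brains, with overlap. The interaction of Grm5 was -2.07 ± 0.32 (limma adjusted p = 0.0014). Camk1d, a calcium/calmodulin-dependent kinase, separated Mgmt-/- MAM (6.52 to 7.48) from Mgmt-/- vehicle (8.05 to 8.52) and from wt MAM brains (7.75 to 8.43), with an interaction of -1.90 ± 0.24 (limma adjusted p = 2.21e-04). In both genes the Mgmt-/- groups were separate and the wt groups overlapped.

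Tph2, the rate-limiting enzyme of serotonin synthesis in neurons, had an interaction of -2.22 ± 0.47 (SE, limma adjusted p = 0.0195) that was larger in wt brain, as in 63 of the 233 lower genes. It read 3.78, 4.06, 4.18, 4.66 and 5.61 in wt vehicle and 5.63, 6.06 and 6.53 in wt MAM brains, a non-overlapping difference of 1.61 log2 units, and 3.34, 4.52 and 5.79 against 3.41, 4.11 and 4.57 in Mgmt-/- vehicle and MAM brains. Slc6a4, the serotonin transporter of the same neurons, had an interaction of -1.28 ± 0.28 (limma adjusted p = 0.0268), with 4.95 to 6.16 in wt vehicle, 5.66 to 6.21 in wt MAM, 4.90 to 6.21 in Mgmt-/- vehicle and 4.74 to 5.195 in Mgmt-/- MAM brains. The highest Slc6a4 value was above 6 in the other 3 groups and below 6 in Mgmt-/- MAM brains. Tph2 and Slc6a4 were the 2 genes called among 9 tested monoamine genes, and with the RNA index described below as a covariate neither stayed called (limma adjusted p = 0.219 and 0.246).

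The next lowest were Lnpk, which shapes endoplasmic reticulum junctions (-1.88), Pnmal2 (-1.81), Ttbk2, a tau tubulin kinase (-1.79), Map1b, a microtubule-associated protein (-1.77), Adgra1, an adhesion receptor (-1.71), Kbtbd11 (-1.71), Ntrk2, the receptor for brain-derived neurotrophic factor (-1.68), Luc7l, a splicing factor (-1.67), and Tbl1xr1, a subunit of a nuclear corepressor (-1.67). Lnpk, Pnmal2, Ttbk2, Map1b, Kbtbd11 and Tbl1xr1 had no overlap between the Mgmt-/- groups, while Adgra1, Ntrk2 and Luc7l did overlap. Over the 233 lower genes, Mgmt-/- MAM brains lay below Mgmt-/- vehicle brains without overlap in 90 (0.599% of all probe sets), wt MAM lay above wt vehicle in 26 (0.792%), and Mgmt-/- MAM lay below wt MAM in 59.7% of them (6.07%).

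Il4i1, an amino acid oxidase, read 4.46, 4.46, 4.53, 4.75 and 4.78 in wt vehicle and 4.05, 4.27 and 4.37 in wt MAM brains, and 4.01, 4.52 and 4.73 against 4.61, 4.87 and 5.47 in Mgmt-/- vehicle and MAM brains. The wt groups did not overlap and the Mgmt-/- groups did. The interaction was 0.86 ± 0.18 (SE, limma adjusted p = 0.0161).

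Behind Il4i1 came 4931415C17Rik (0.69), Cdsn, a protein of skin cell junctions (0.65), Ms4a10 (0.62), Cks1brt (0.62), Slc22a26 (0.61), Antxr1 (0.61), Rbm15b, an RNA-binding protein (0.60), Insrr, the insulin receptor-related receptor (0.60), Olfr701, an odorant receptor (0.60), Gpr179 (0.59), Cldn9, a tight junction claudin (0.59), Sbno2 (0.57), Flt4, a receptor of lymphatic vessels (0.56), and Oc90, a protein of the inner ear (0.56). Over the 38 higher genes, wt MAM lay below wt vehicle without overlap in 22 (2.15% of all probe sets), and Mgmt-/- MAM lay above Mgmt-/- vehicle in 3 (0.133%). In wt MAM brains Ms4a10 read 3.74 to 4.08 against 4.26 to 4.57 in wt vehicle, and in Mgmt-/- brains 4.15 to 4.46 after MAM against 3.97 to 4.51.

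**Figure D2:**
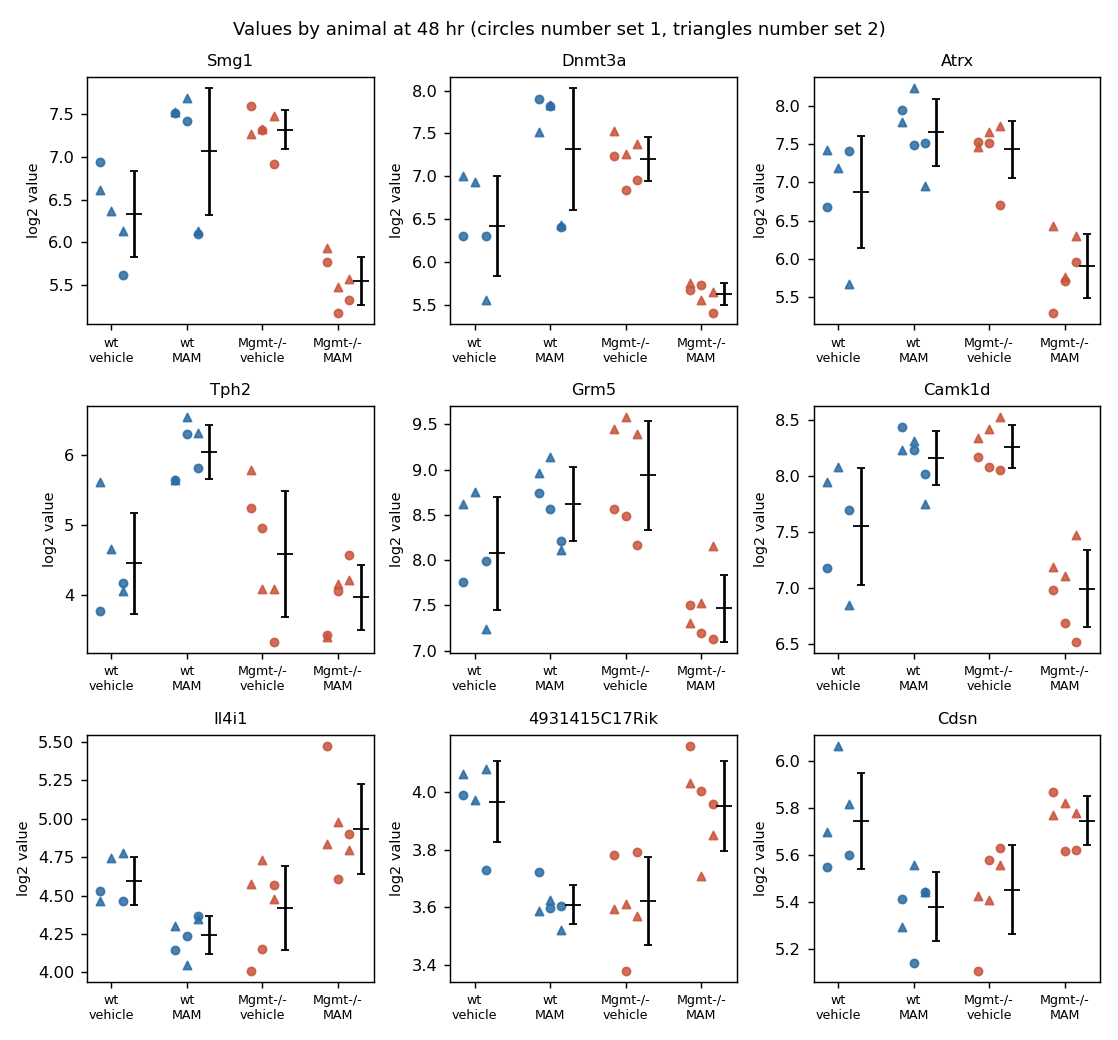
Log2 values of 9 called genes in each animal at 48 hr, by group; circles and triangles mark number sets 1 and 2, and bars show mean and SD to the right of each group (n = 5 in wt vehicle, 6 elsewhere). In Smg1, Dnmt3a and Atrx the Mgmt-/- MAM animals lie lowest but overlap wt vehicle. In Tph2 the wt MAM animals lie highest but overlap Mgmt-/- vehicle. In Il4i1 and 4931415C17Rik the wt MAM animals lie below wt vehicle and overlap Mgmt-/- vehicle.

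The 2 number sets gave different counts, although the called genes had the same sign in both, which the filter favors. Set 1 alone called 14 genes (0.0769% of all genes), all lower, and set 2 alone called 198 (1.09%), 42 higher and 156 lower. The count in wt brain differed in the same way, with 0 genes called in set 1 and 567 in set 2. The count in Mgmt-/- brain differed in the opposite way, with 165 in set 1 and 37 in set 2. A reading that does not depend on the selection used the probe sets called in 1 set, without the filter, and took their values in the other. The 163 probe sets called lower in set 2 had a median interaction of -0.47 in set 1, 93.3% of them below 0 (47.8% of all probe sets), with -0.37 in Mgmt-/- and 0.11 in wt brain. The 42 called higher in set 2 had a median of 0.26 in set 1 (81.0% above 0 against 52.2%). The 14 called lower in set 1 had a median of -1.10 in set 2, with -0.77 in Mgmt-/- and 0.33 in wt brain, and 11 of 14 were below 0. In these readings, the lower genes moved further in Mgmt-/- than in wt brain, with only 14 probe sets behind the reading in set 2. Set 1 held WT.VEH.48.113, MGMT.VEH.48.317 and MGMT.MAM.48.337, which correlated least with their groups, and only 2 wt vehicle animals. Over all 45101 probe sets, the Mgmt-/- change had a Pearson r of 0.129 between the sets (50% of the same sign). The wt change had 0.31 (60.4%) and the interaction 0.403 (62.5%). Smg1 had an interaction of -2.56 in set 1, while Dnmt3a had -2.48 and Tph2 -2.43.

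The same probe sets were then read at 6, 24 and 168 hr, in other animals. The 233 lower genes had a median interaction of -0.25, -0.24 and -0.35 there, and 81.1, 82.0 and 86.7% were below 0, against 54.8, 50.4 and 46.6% of all probe sets. At 168 hr without MGMT.MAM.168.343, left out as an alternative, they were -0.25 and 88.0% (50.5% of all). The Mgmt-/- part was -0.36, -0.42 and -0.39, and the wt part was -0.13, -0.19 and -0.077, on the side of 0 opposite to that at 48 hr. The higher genes had 44.7, 68.4 and 81.6% above 0 (45.2, 49.6 and 53.4% of all), with medians of -0.014, 0.059 and 0.10. Smg1 had an interaction of -1.46, -1.50 and -1.32, Grm5 of -1.17, -1.01 and -1.66, and Dnmt3a of -0.83, -0.89 and -1.05 at the 3 times, whereas Tph2 had 0.99, -0.40 and -0.75.

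Few genes were called at those times, when the number-set filter also kept fewer probe sets. It kept 39.3% at 6 hr, 47.9% at 24 hr and 80.3% at 168 hr, and it kept 53.6, 46.4 and 55.4% of the lower genes' called probe sets. With the same rule, the interaction gave 11 genes 6 hr after MAM (0.114%), 0 after 24 hr and 1 after 168 hr (0.0061%), or 16 without MGMT.MAM.168.343 (0.106%). In limma fits of all arrays, 0 genes had an interaction at 48 hr that differed from that at 6, 24 or 168 hr, with 7.31, 4.17 and 4.17% of the probe sets at an unadjusted p under 0.05, so a difference between times was not detectable. The 24 hr count of 0 stands beside 25.8% of the 233 lower genes below 0 at an unadjusted p under 0.05 (3.24% of all probe sets).

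**Figure D3:**
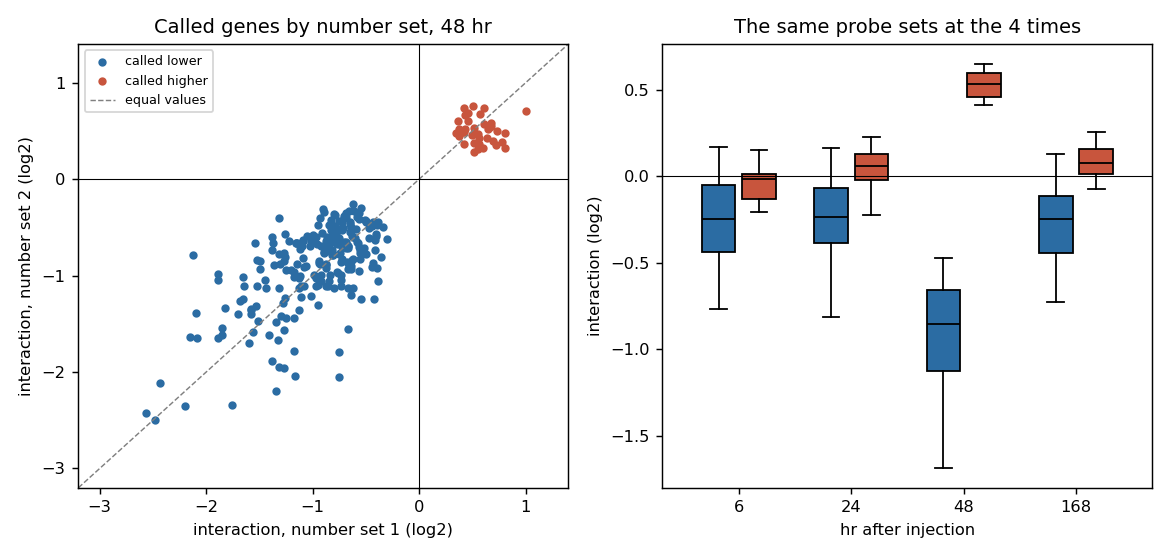
Left, interaction (log2) of each called gene in number set 1 (x axis) and 2 (y axis), with equality dashed; every gene has the same sign in either set. Right, interaction (log2) of the same probe sets at 6, 24, 48 and 168 hr, lower genes in blue and higher genes in red (boxes show quartiles, whiskers the 5th and 95th percentiles, 168 hr without MGMT.MAM.168.343); the blue boxes stay below 0 at all 4 times, and the red ones lie near 0 except at 48 hr.

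A called gene often had other probe sets that moved less. Of the 233 lower genes, 223 had another probe set, and the brightest of these had a median interaction of -0.077, against -0.86 for the called one. Of the brightest others, 158 were below 0, and 39 were lower and 2 higher at an unadjusted p under 0.05 (7.87% of all probe sets lower). The called probe set was the dimmer in 194, with a median level of 6.93 against 8.50. In 16 genes a second probe set was called too, among them Smg1, Malat1, Cdh13, Adgrl3, Napb and Tbl1xr1. Of the 17 higher genes with another probe set, the median was 0.49 for the called and 0.11 for the brightest other, of which 13 were above 0. The brightest other probe set of Dnmt3a read -0.049, that of Atrx 0.023, of Grm5 -0.018, of Ntrk2 0.084, of Camk1d -0.35 and of Smg1 -0.30. The array detects the 3' end of transcripts, and which transcript forms each probe set sees was not tested here.

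**Figure D4:**
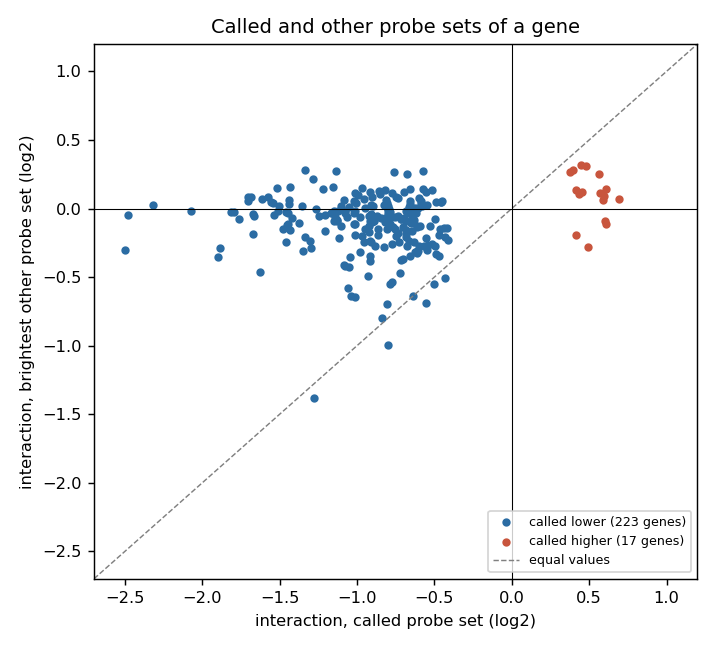
Interaction (log2) at 48 hr of the called probe set (x axis) and of the brightest of the gene's other probe sets (y axis), for 223 genes called lower (blue) and 17 called higher (red); the dashed line marks equal values. The points spread along the x axis and cluster around 0 on the y axis.

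RNA quality moved with the interaction. The RNA 3'/5' index, the log2 ratio of 3' to 5' control probe sets averaged over Gapdh and beta-actin, was 0.33 ± 0.03 in wt vehicle (SD, n = 5), 0.33 ± 0.07 in wt MAM, 0.42 ± 0.06 in Mgmt-/- vehicle and 0.54 ± 0.06 in Mgmt-/- MAM brains (SD, n = 6 each). It was 0.12 higher after MAM in Mgmt-/- brain (exact two-sided permutation p = 0.01), 0.00058 higher in wt brain (exact p = 0.99) and 0.12 higher in the interaction (exact p = 0.0421 over 80000 arrangements within genotype and number set). The null of the last permutation was no MAM effect in either genotype, so it does not test the genotype difference alone. With the index as a covariate, 45 genes were called in place of 271, including 40 of the 233 lower and 2 of the 38 higher genes. The median interaction moved from -0.85 to -0.82 in the lower genes and from 0.53 to 0.48 in the higher ones, all 271 kept their sign, and all had an unadjusted p under 0.05, while the median SE rose from 0.17 to 0.20 in the lower genes. The 271 genes were called on these same arrays, so their kept signs and unadjusted p-values are not independent support. Of the 15 lowest genes 9 stayed called, and of the 15 highest 1 did (Insrr).

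**Figure D5:**
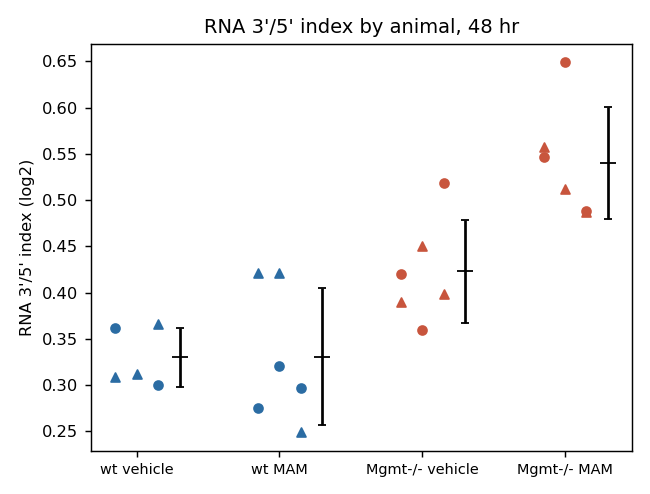
RNA 3'/5' index (log2) of each animal at 48 hr by group; circles and triangles mark number sets 1 and 2, and bars show mean and SD. The Mgmt-/- MAM animals lie between 0.49 and 0.65, above every wt animal, and overlap the Mgmt-/- vehicle animals.

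Genes listed by function were counted beside the background of 1.66% called in either direction. The lists and their members were chosen with earlier results of these data known, so their shares cannot be read as enrichment. With the RNA index as a covariate, 8 of the 39 lower list members outside the 15 lowest genes stayed called (Zbtb4, Esco1, Ctcf, Cdh8, Rbfox3, Slc4a4, Lrp6 and Cpeb2), and 0 of the 2 higher ones (limma, where all 41 had an unadjusted p under 0.05 on the arrays that called them). In the DNA methylation list, 3 of 14 tested genes were called, all lower. Dnmt3a was described above, Zbtb4, a reader of methylated DNA, had an interaction of -1.30, and Tet1, which oxidizes methylcytosine, had -0.77. The median over the brightest probe sets of the list was -0.098, against 0.0030 over all genes. In the list of Ctcf, Atrx and cohesin, 3 of 15 were called lower: Atrx, Ctcf, an insulator protein (-1.54), and Esco1, which acetylates cohesin (-1.34). The median of that list was -0.046. Of the SWI/SNF remodelers, Smarcc1 (-0.82) and Pbrm1 (-0.80) were called among 23.

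Genes of RNA processing came next. Of 32 splicing regulators 5 were called, all lower: Luc7l, Bclaf1 (-1.02), Celf1 (-0.66), Rbfox2 (-0.55) and Ddx3x (-0.42). With each animal left out in turn, Rbfox2 lost its call in 16 of 23 fits, Ddx3x in 14 and Celf1 in 8, and Luc7l and Bclaf1 in 0. Of 23 translation factors, Pabpc1, which binds the poly(A) tail, had -0.80, and Cpeb1 and Cpeb2, regulators of poly(A) tails at synapses, had -0.61 and -0.70. Malat1, a nuclear long RNA, was called at -1.28, and its brightest probe set read -1.38, which did not pass the filter. Smg1 was the 1 called gene of 14 tested kinases and checkpoint genes of the damage response.

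Synaptic genes were called on the lower side too. Of 19 synaptic adhesion genes, 5 were called, namely Cdh8 (-1.08), Cdh13 (-1.04), Nlgn1 (-0.95), Mdga2 (-0.95) and Adgrl3 (-0.86), of which Cdh8 alone stayed called with the RNA index. With each animal left out in turn, Nlgn1 and Adgrl3 each lost their call in 11 of 23 fits, Cdh13 in 1 of 22, and Cdh8 and Mdga2 in 0. The median over the brightest probe sets of the adhesion list was -0.0048, with 10 genes above and 10 below 0. Synj1, a phosphatase of vesicle recycling (-0.995), and Napb, which disassembles vesicle fusion complexes (-0.68), were the 2 called of 23 genes of the vesicle cycle. Grm5 was called among 7 metabotropic receptors, Gad2, which makes GABA, among 16 GABA genes, and Ntrk2 and Ntrk3, receptors of neurotrophins, among 6. The medians over the brightest probe sets were -0.050 for metabotropic receptors, -0.085 for GABA and 0.070 for neurotrophins, where 5 genes were above and 2 below 0. Gad2 read 6.98, 7.65 and 7.96 in Mgmt-/- vehicle and 6.04, 6.32 and 6.59 after MAM, with no overlap, and 7.38 to 8.76 in wt vehicle and 7.73 to 9.05 in wt MAM brains, with an interaction of -1.58. Synj1, Napb, Gad2, Ntrk2 and Ntrk3 lost their calls with the RNA index, and Grm5 kept its call. Of 18 ionotropic glutamate receptor and scaffold genes 0 were called (limma), with 4 of 22 brightest probe sets at an unadjusted p under 0.05.

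Cell signaling and the cytoskeleton gave calls in either direction. Of 21 tau and microtubule genes, Map1b, Gsk3b, which phosphorylates tau (-1.14), Mapt, the gene of tau (-0.66), and Mapre1, which binds microtubule ends (-0.47), were lower, and Pafah1b1, a dynein regulator (0.42), was higher. The Pafah1b1 groups did not overlap in Mgmt-/- brain (10.54 to 10.74 in vehicle and 10.78 to 11.08 after MAM). For Mapt the groups overlapped within each genotype and after MAM, and only the vehicle groups were apart. With each animal left out in turn, Mapt lost its call in 17 of 22 fits that tested it, and Pafah1b1 in 10 of 23. Mapre1 lost it in 6 of 22, Gsk3b in 0 of 17 and Map1b in 0 of 23. In cyclic nucleotide signaling, Akap9 (-1.30), Pde1a (-1.02) and Prkar2a (-0.73) were lower and Pde3a (0.38) higher among 29, and in calcium signaling Camk1d, Camk4 (-1.42) and Cabin1 (-0.69) among 16. Gsk3b and Lrp6 (-0.89) were the 2 called of 28 Wnt genes. Hsp90b1 (-0.60) and Dnajc3 (-0.69), chaperones of the endoplasmic reticulum, were called among 10, and Hsd17b7 (-1.15), of cholesterol synthesis, among 18. In the same fits with 1 animal left out, Pde3a lost its call in 18 of 22, Dnajc3 in 16 of 23, Camk4 in 15 of 21 and Cabin1 in 13 of 22. Akap9, Pde1a, Prkar2a, Camk1d, Lrp6, Hsp90b1 and Hsd17b7 lost it in 0.

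Several lists held 0 called genes (limma). None was called among 18 p53 targets, 25 repair genes, 21 MAPK, 23 insulin and PI3K or 9 NF-kB genes, where 2 of 22, 5 of 28, 3 of 22, 3 of 24 and 0 of 10 brightest probe sets had an unadjusted p under 0.05, against 14.9% over all genes. Of the p53 targets, Cdkn1a, a cell cycle inhibitor, had an interaction of 0.58 ± 0.29 (SE, not called), and Btg2, which did not pass the number-set filter, of -0.78 ± 0.25. The repair genes with the largest values were Mbd4 (-0.69 ± 0.22) and Msh6 (-0.49 ± 0.15), neither called. Of 25 immediate early genes, which follow neuronal activity, 23 had a negative value in their brightest probe set and 11 an unadjusted p under 0.05 (49.4 and 14.9% of all genes). Their median was -0.34, and -0.22 without MGMT.MAM.48.337, whose score over the list was -0.631 against -0.105 to 0.076 in the other Mgmt-/- MAM brains (median log2 deviation of its genes). Fos read -1.26 ± 0.54, Arc -1.13 ± 0.36 and Egr2 -0.98 ± 0.34. None of those 3 passed the number-set filter, 16 of the 25 were tested, and 0 were called. The median of 27 glucocorticoid-responsive genes was 0.26, with 22 positive and 3 at an unadjusted p under 0.05, and 0 of 23 were called. Without MGMT.MAM.48.337, which scored 0.786 against -0.0025 to 0.149 in the other Mgmt-/- MAM brains, the median was 0.12 with 17 positive.

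Marker lists were read between the groups only, since levels of different probe sets cannot be compared. The median interactions of the lists were -0.12 in neurons, -0.072 in astrocytes, -0.0052 in oligodendrocytes, -0.14 in microglia, -0.15 in endothelium, -0.11 in choroid plexus and 0.14 in liver markers. In number sets 1 and 2 they were -0.264 and 0.015 in neurons, -0.080 and 0.038 in oligodendrocytes, 0.184 and -0.383 in choroid plexus and -0.087 and 0.288 in liver markers. Astrocytes, microglia and endothelium were negative in each set. Over the liver list, the highest wt MAM brain scored 1.12, against a group median of -0.090. Cerebellum markers were at -0.17 and genes often used as references at -0.14, with 9 of 9 negative in each, so reference genes had values as low as most cell type lists. The called markers were Rbfox3 (-1.09) in neurons, Gad2 in inhibitory neurons, Slc4a4 (-1.13) in astrocytes and Prox1 (-0.79) in the list of hippocampus and cortex. The inhibitory neuron list had a median of -0.0098, with 3 genes above and 6 below 0. That of hippocampus and cortex had 0.045, with 4 above and 4 below 0. Prox1 was dim, with group medians of 4.19 to 4.71. The brightest other probe sets of Rbfox3, Gad2 and Slc4a4 read 0.061, 0.087 and -0.088.

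The binding sites of nuclear receptors often contain the hexamer AGGTCA. It was sought on either strand, as AGGTCA or TGACCT, in RefSeq promoter windows (build GRCm38.p6) from 250 bases before to 50 after the start. Of 188 lower genes with a promoter, 28 held it (14.9%), as did 6 of 27 higher genes (22.2%) and 2141 of 12981 genes tested (16.5%). Its direct repeat with 1 base between occurred in 0 of the 188 and 27, and in 7 of all promoters. Among the 15 lowest genes, Dnmt3a and Atrx held the hexamer before the start, and both are shown because they are among the 3 lowest, 5′ to 3′ on the strand of the gene with the hexamer in capitals.
Dnmt3a, chr12:3891658-3891683, + strand: ggggcccacgTGACCTggagttctag
Atrx, chrX:105929525-105929550, - strand: tgacactttgAGGTCAgcagtaactg
A match is a description of the letters only.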

How the data were processed

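Total RNA of 23 mouse brains 48 hr after vehicle or MAM was read on Affymetrix mouse genome arrays. The authors deposited log2 values from RMA with the affy package (per the labels), and these log2 values were used unchanged. Neither the affy version nor joint normalization of the arrays is stated. Precision is limited by how many arrays a group has. P-values measure the spread between animals. Probe sets were named by the platform annotation (34958 name 1 gene, 932 several, 9211 none).

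limma 3.58.1 in R 4.3.3 fitted the 4 groups with number set as a block, and probe sets were kept at a joint F test p above 0.15. P-values were adjusted by the Benjamini-Hochberg method over the 35550 kept probe sets. The calculation was tested on simulated data. The genes named were Mgmt, the 15 highest and 15 lowest called interactions, the called list members and the largest members of lists. The members and the 53 lists were chosen with earlier results of these data known. Alternatives covered the filter, the test, the array weights, normalization, fold and level thresholds, number set, RNA index, the fit of all arrays and each animal left out, with calls given as percent of all 18194 named genes. Gene lists, other probe sets and promoters were described without tests. Figures used matplotlib 3.10.9 in Python 3.11.15. The number sets are taken as laboratories from the animal numbers, and animal numbers do not pair groups.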

Additional observations from a re-analysis of the deposited data

Results flagged for a closer look

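The MAM effect at 48 hr differed between Mgmt-/- and wt brain in 271 genes by the interaction term (limma, Benjamini-Hochberg), as described above. In 18 of 292 groups of the named genes and the RNA index (6.16%), the highest or lowest animal stood far from the rest by Dixon's test, where chance gives about 1 in 20. MGMT.VEH.48.317 accounted for 4 of them, with Atrx at 6.70 (others 7.46 to 7.74), Gad2 at 6.98 (7.61 to 7.96), Hsp90b1 at 9.71 (10.05 to 10.11) and Ms4a10 at 4.51 (3.97 to 4.16). Its Atrx and Gad2 values lay toward those of the Mgmt-/- MAM brains. WT.MAM.48.739 accounted for 3, with Cpeb1 at 8.20, Pde1a at 9.58 and Prkar2a at 6.55, each the highest of its group.

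Among wt vehicle brains, WT.VEH.48.115 had Camk4 at 6.75 (lowest) and Mapre1 at 5.96 (highest), WT.VEH.48.113 had Cks1brt at 4.85 and Tet1 at 5.40 (both highest), and WT.VEH.48.713 had Malat1 at 6.51 (highest). Among Mgmt-/- vehicle brains, MGMT.VEH.48.313 had Akap9 at 5.85 and Synj1 at 9.88 (both lowest), and MGMT.VEH.48.315 had Celf1 at 7.77 (highest) and Rbfox3 at 8.31 (lowest). After MAM in Mgmt-/- brain, MGMT.MAM.48.337 had Slc22a26 at 5.76 (highest) and MGMT.MAM.48.339 had Olfr701 at 4.48 (lowest).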

How the results depend on the processing

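Calls are given here as percent of all 18194 named genes. The interaction (1.49%) became 0.929% with a filter on each number-set interaction, 0.517% with an ordinary linear model, 3.87% with array weights, 0.0769% in set 1 alone, 0.247% with the RNA index, 0.506% in a fit of all arrays and 2.81% without WT.VEH.48.113, MGMT.VEH.48.317 and MGMT.MAM.48.337, a choice made after seeing the data. Leaving out 1 animal gave 0.775% (WT.VEH.48.717) to 3.97% (MGMT.VEH.48.317), and 2.71, 0.912 and 0.791% without WT.VEH.48.115, WT.MAM.48.137 and WT.MAM.48.739. The Mgmt-/- effect (0.720%) became 1.23% with no filter, 0.253% with an ordinary model, 0.203% in set 2, 0.0934% with the index, 0.258% with all arrays and 1.18% without the 3 animals, and 0.440% (MGMT.VEH.48.917) to 1.3% (MGMT.VEH.48.317) without 1 animal, with 0.456% without MGMT.VEH.48.315. The wt effect (0%) became 0.0055%, or 1 gene, with each filter, with cyclic loess, without dim probe sets and with all arrays, 0.791% with array weights and 3.12% in set 2, and 0 to 1.13% (WT.VEH.48.115) without 1 animal. The vehicle difference (4.70%) became 3.02% with each filter, 0.528% in set 1 and 2.07% with all arrays, and 3.58 to 5.48% without 1 animal. The difference after MAM (13.3%) became 26.7% with no fold threshold, 5.58% in set 1, 2.81% with the index and 8.70% without the 3 animals, and 9.74 to 14.7% without 1. Over the mean of all probe sets of a gene, list medians (log2) moved to -0.018 for p53 targets, -0.24 for Ctcf, Atrx and cohesin, -0.25 for metabotropic receptors and for neurotrophins (-0.252), -0.15 for calcium, -0.22 for splicing, -0.093 for translation, -0.16 for the vesicle cycle, -0.17 for adhesion and -0.14 for tau and microtubules, and the other 43 lists moved by less than the spread between animals. Without 1 animal, a choice made after seeing the data, the median was 0.119 to 0.330 for glucocorticoid-responsive and -0.389 to -0.223 for immediate early genes. Of the 72 genes run under these settings (Mgmt, the 15 highest and lowest and the called list members), none reversed where tested. They were called on these same arrays, which favors the same sign. Many lost their call: 53 with the RNA index, 45 in the fit of all arrays and 35 with an ordinary linear model. In set 1 alone 68 lost it, and in set 2 alone 55. With each filter 23 were not tested, and without dim probe sets 13. The cause of each change was not tested. No paired analysis was possible because the animal numbers are not shared between groups.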
